A study of Homo sapiens with 38 samples.

Results

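Serum amyloid A, lipopolysaccharide-binding protein (LBP) and lipocalin 2 (LCN2) were followed in A549 cells, a human alveolar epithelial line from a lung carcinoma, exposed to fumed silica nanoparticles (NPs). The member genes were SAA1, SAA2, SAA4, LBP and LCN2, 5 genes of the 19720 that could be named on the array. They were found through the transcript accession of each probe, which gave 6 probes of 34127: 1 each for SAA1 (NM_000331), SAA4 (NM_006512), LBP (NM_004139) and LCN2 (NM_005564), and 2 for SAA2 (NM_030754 and NM_001127380). SAA1, SAA2 and SAA4 lie on chromosome 11, LBP on chromosome 20 and LCN2 on chromosome 9.

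The 38 one-colour arrays measured total RNA from cells kept in serum-free medium, with or without silica. Unexposed cells formed 4 control sets, each compared with its own exposed groups: control A (24 h, 4 arrays) for 0.1 and 1.0 µg/cm² (4 arrays each), control B (24 h, 4 arrays) for 1.5 µg/cm² (4 arrays), control C (24 h, 3 arrays) for 3.0 and 6.0 µg/cm² at 24 h (3 arrays each), and control D (72 h, 3 arrays) for 3.0 and 6.0 µg/cm² at 72 h (3 arrays each). The labels number every array as a separate culture, whereas the exposure protocol speaks of 3 cultures, so some of the 4 arrays of a group may share a culture and p-values then measure only the spread between arrays. All groups come from 1 cell line.

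Levels are given below as relative signal, the processed signal of a probe in percent of the 75th percentile of its array, and group levels are geometric means. A probe was "well above background" where the scanner software marked it so. The 75th percentile ranged from 740 to 3202 signal units over the arrays, and 54.4 to 73.5% of probes per array were well above background. All 6 epithelial markers were well above background on all 38 arrays (KRT18 at 13249 to 33368%). Of the 8 alveolar type II markers SFTPC, ABCA3 and NAPSA were so on 38 arrays, SFTPA2 and SFTPD on 37, LAMP3 on 33, SFTPA1 on 11 and SFTPB on 2. Among the leukocyte markers PTPRC and CD68 were so on 38 arrays, ITGAM on 37, ELANE on 21, CD3E on 7, CSF1R on 3 and MPO on 0.

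Acute phase proteins are plasma proteins whose output changes after tissue injury or infection, mostly in the liver but also in epithelia. Their genes are driven by interleukin 6 and interleukin 1 through STAT, C/EBP and NF-kB factors. SAA1 and SAA2 are the inducible serum amyloid A proteins, which travel on high-density lipoprotein, and SAA4 is the constitutive form. LBP hands bacterial lipopolysaccharide to CD14 and from there to TLR4 with its partner MD-2 (LY96). LCN2 binds bacterial siderophores and so keeps iron from bacteria.

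The promoter of LCN2 is shown because LCN2 was the member measured on every array. It holds the bases upstream of the transcription start in RefSeq (GRCh38.p14, chr9:128149203-128149452, plus strand), in lower case with motif matches in capitals.
LCN2: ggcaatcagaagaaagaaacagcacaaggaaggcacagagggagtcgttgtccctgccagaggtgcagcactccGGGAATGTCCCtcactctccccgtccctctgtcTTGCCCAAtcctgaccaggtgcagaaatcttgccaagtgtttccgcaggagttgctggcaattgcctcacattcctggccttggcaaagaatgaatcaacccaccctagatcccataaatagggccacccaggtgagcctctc
The capitals mark letter patterns searched on both strands, for NF-kB (GGG and CC with any 5 bases between), C/EBP (TTNNGNAA) and STAT (TTCNNNGAA). Counted from the transcription start, LCN2 held 2 overlapping NF-kB matches, 1 on each strand, from -176 to -166, and 1 C/EBP match on the minus strand from -143 to -136. No STAT match lay in this window. Of 35116 promoters of the same length, 54.4% held the NF-kB pattern, 33.2% the C/EBP pattern and 6.57% the STAT pattern, so the NF-kB and C/EBP letters are common. RefSeq promoters were matched for 2 of the 5 members; SAA4, the other one, held 6 C/EBP matches and 0 of the NF-kB and STAT patterns.

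The members fell into 3 patterns. SAA1 and SAA2 were higher in silica-exposed cells at 24 h at the highest doses. LCN2 and LBP were higher in unexposed cells at 72 h than at 24 h and lower in silica-exposed cells at 72 h. SAA4 and the second SAA2 probe (NM_001127380) were well above background on 0 of 38 arrays, with relative signals of 0.105 to 0.749% and 0.0969 to 0.683%, so neither was tested. With no filter on dim probes the second SAA2 probe was called at 6.0 µg/cm² for 24 h (0.82, adjusted p = 0.0391, limma), where it read 0.420 to 0.533% against 0.224 to 0.328% in control C, all below the background mark.

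**Figure D1:**
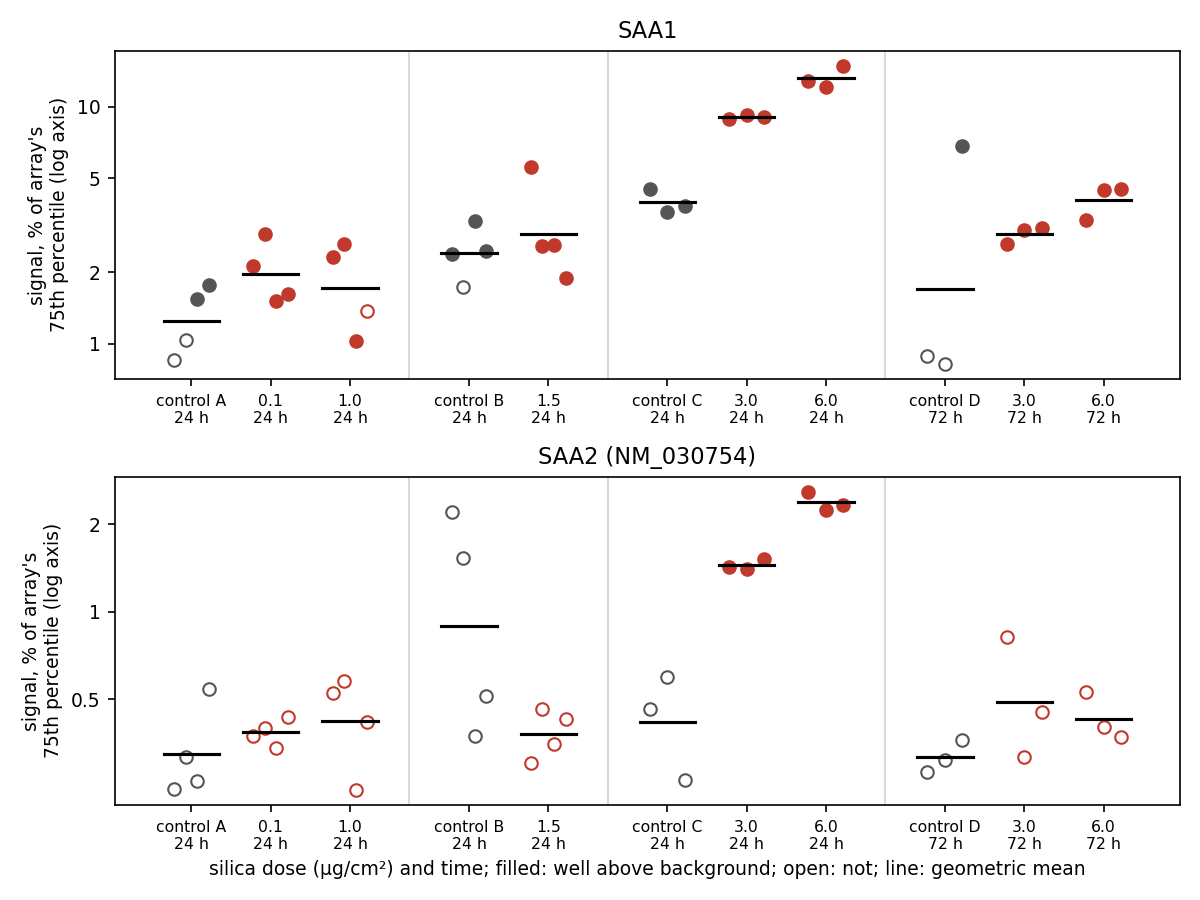
Relative signal of SAA1 and of SAA2 (NM_030754) on each array, in percent of the 75th percentile of that array on a log axis, by dose and time. Points are arrays, filled where the probe was well above background, and lines are geometric means. SAA2 is filled in the 2 highest dose groups of 24 h, with group levels of 1.45% and 2.38%, and 1 of the 3 points of control D stands at 6.80% in the SAA1 panel.

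SAA1, the main inducible serum amyloid A, rose at 24 h from 3.0 µg/cm² upwards. Its relative signal in control C was 4.50, 3.60 and 3.81%. After 3.0 µg/cm² it was 8.84, 9.20 and 9.06%, and at 6.0 µg/cm² 12.8, 12.1 and 14.9%. The 3 groups did not overlap and stood in the order of the dose. The log2 difference from control C was 1.19 ± 0.088 (SE) at 3.0 µg/cm² (2.29-fold, adjusted p = 0.000978, limma) and 1.74 ± 0.11 at 6.0 µg/cm² (3.35-fold, adjusted p = 0.000151). Within each of 3 slides shared with control C, the difference ran from 0.98 to 1.36 at 3.0 and from 1.51 to 1.97 at 6.0 µg/cm². With normexp background correction these differences were 0.67 and 1.14, and with the intensity without background subtraction 0.64 and 1.02 (2.03-fold), all 4 still called. Between both doses the log2 difference was 0.55 ± 0.082 (adjusted p = 0.0146), under the 1.5-fold threshold used for a call. Without replicate 2 of the 6.0 group it was 0.61 (adjusted p = 0.0237) and passed. In RNA from whole cultures, fewer cells of a kind and less RNA per cell cannot be told apart.

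SAA2, its close paralog, was well above background in no control group and rose at 24 h at the same doses. The probe for NM_030754 read 0.465, 0.596 and 0.264% in control C, on 0 of 3 arrays well above background. At 3.0 µg/cm² it read 1.42, 1.41 and 1.52%, and at 6.0 µg/cm² 2.59, 2.24 and 2.32%, on 3 of 3 arrays well above background in both groups. These 6 arrays were the only ones of 38 with SAA2 above background. Bounds were taken against the lowest signal that counted as well above background on each control array. By these SAA2 was at least 1.59-fold higher at 3.0 µg/cm² and at least 2.61-fold higher at 6.0 µg/cm². The bounds themselves were not tested. The fitted differences, against control values below background, had adjusted p = 0.0109 and 0.00116 (limma). The probe entered those fits only through the exposed groups. The measured group levels were 0.418% in control C, 1.45% at 3.0 and 2.38% at 6.0 µg/cm². From 3.0 to 6.0 µg/cm² SAA2 rose by 0.71 ± 0.070 on the log2 scale (1.64-fold, adjusted p = 0.00509), where the probe was above background on both sides. That call was lost with normexp (0.41, adjusted p = 0.711) and with the intensity without background subtraction (0.09, adjusted p = 0.825). The call at 3.0 µg/cm² was lost when no filter on dim probes was used (adjusted p = 0.0513) and with the methods' t-test (adjusted p = 0.0662 after Benjamini-Hochberg). With normexp background correction of the median intensity the log2 difference was 0.26 at 3.0 (adjusted p = 0.0399) and 0.67 at 6.0 µg/cm² (adjusted p = 0.198). With the intensity without background subtraction it was 0.16 (adjusted p = 0.721) and 0.25 (adjusted p = 0.241), and none of these 4 values was called.

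SAA1 and SAA2 share most of their coding sequence. Probe sequences were not used here, and how far each probe also binds the other transcript was not tested.

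At the lower doses no serum amyloid A probe passed the test. At 0.1 µg/cm² SAA1 read 2.13, 2.90, 1.52 and 1.63% against 0.853, 1.04, 1.54 and 1.77% in control A, on 4 of 4 and 2 of 4 arrays well above background. The groups overlapped, and the log2 difference was 0.67 ± 0.28 (adjusted p = 0.512, limma). At 1.0 µg/cm² SAA1 read 2.32, 2.64, 1.03 and 1.38%; it was well above background on 3 of 4 exposed and 2 of 4 control arrays and was not tested. At 1.5 µg/cm² it read 5.56, 2.58, 2.61 and 1.89% against 2.40, 1.74, 3.30 and 2.47% in control B, a log2 difference of 0.26 ± 0.33 (95% interval -0.49 to 1.02, adjusted p = 0.735). Without replicate 1 of that group the difference was -0.05. In controls A and B and at 0.1, 1.0 and 1.5 µg/cm² the SAA2 probe NM_030754 was well above background on no array, with group levels of 0.325 to 0.896%. Single unexposed arrays still read as high as the 1.41 to 1.52% seen at 3.0 µg/cm² for 24 h. Replicates 1 and 2 of control B read 2.19 and 1.52%. The lowest signal well above background on those arrays was 2.20 and 3.26%.

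At 72 h SAA1 was measured on all exposed arrays but not on all controls. Control D read 0.890, 0.822 and 6.80%, and replicate 3 was the only one of the 3 well above background. The 3.0 µg/cm² arrays read 2.64, 3.01 and 3.09% and the 6.0 µg/cm² arrays 3.34, 4.45 and 4.48%. Both exposed groups lay above 2 control arrays and below replicate 3. The log2 differences were 0.77 ± 0.82 at 3.0 (adjusted p = 0.508) and 1.25 ± 0.79 at 6.0 µg/cm² (adjusted p = 0.237). With the intensity without background subtraction they were -0.20 and 0.03. Without control D replicate 3 the control level was not above background. SAA1 was then at least 2.52-fold higher at 3.0 and at least 3.51-fold higher at 6.0 µg/cm², bounds that were not tested. The fits to the 2 remaining control arrays, both below background, gave adjusted p = 0.00406 and 0.000719 (limma). SAA1 entered them only through the exposed groups, and they leave out the only control array that measured it. Between both doses at 72 h the difference was 0.48 ± 0.14 (adjusted p = 0.0621), with no overlap, and it passed without replicate 1 of the 6.0 group (0.62, adjusted p = 0.0185). On control D replicate 3, 35 probes exceeded both other controls by more than 2 on the log2 scale, against 16 and 36 on the other 2 arrays, and its mean correlation with them was 0.998. The SAA2 probe read 0.362% there, close to the 0.283 and 0.311% of the others. SAA1 rests on 1 spot per array, and the cause of the high value was not tested. From control C to control D the SAA1 difference was -1.21 ± 0.79 (adjusted p = 0.222). Without replicate 3 SAA1 was at least 3.42-fold lower in control D. The fit behind it, to control D values below background, had adjusted p = 0.000441 (limma).

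The SAA1 levels of both exposed groups were, without a test, 2.91% at 72 h and 9.03% at 24 h for 3.0 µg/cm², and 4.05% and 13.2% for 6.0 µg/cm². SAA2 (NM_030754) was well above background on 0 of 3 arrays in each 72 h group, with group levels of 0.317% in control D, 0.489% at 3.0 and 0.429% at 6.0 µg/cm². With SAA2 measured only in the exposed groups of 24 h, the size of the difference between its responses at both times is not given. For SAA1 the 72 h minus the 24 h response was -0.50 ± 0.89 at 6.0 and -0.43 ± 0.90 at 3.0 µg/cm² (adjusted p = 0.692 and 0.768, limma). Its direction was not settled: without control D replicate 3, and so against an unmeasured level, it was 0.50 (adjusted p = 0.0801) and 0.57 (adjusted p = 0.0216), and with the intensity without background subtraction -0.99 (adjusted p = 0.00688) and -0.84 (adjusted p = 0.0382).

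Ordered by level over all 11 groups, SAA1 was highest at 6.0 µg/cm² for 24 h (13.2%), followed by 3.0 µg/cm² for 24 h (9.03%), and these 2 groups did not overlap each other or the next. The order went on with 6.0 µg/cm² for 72 h (4.05%), control C (3.95%), 3.0 µg/cm² for 72 h (2.91%), 1.5 µg/cm² (2.90%), control B (2.42%), 0.1 µg/cm² (1.98%), 1.0 µg/cm² (1.72%), control D (1.71%) and control A (1.25%). From 6.0 µg/cm² for 72 h downwards all neighbours overlapped, except control C and 3.0 µg/cm² for 72 h. The 24 h controls themselves thus ran from 1.25 to 3.95% between sets, and each dose is read only against its own set.

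**Figure D2:**
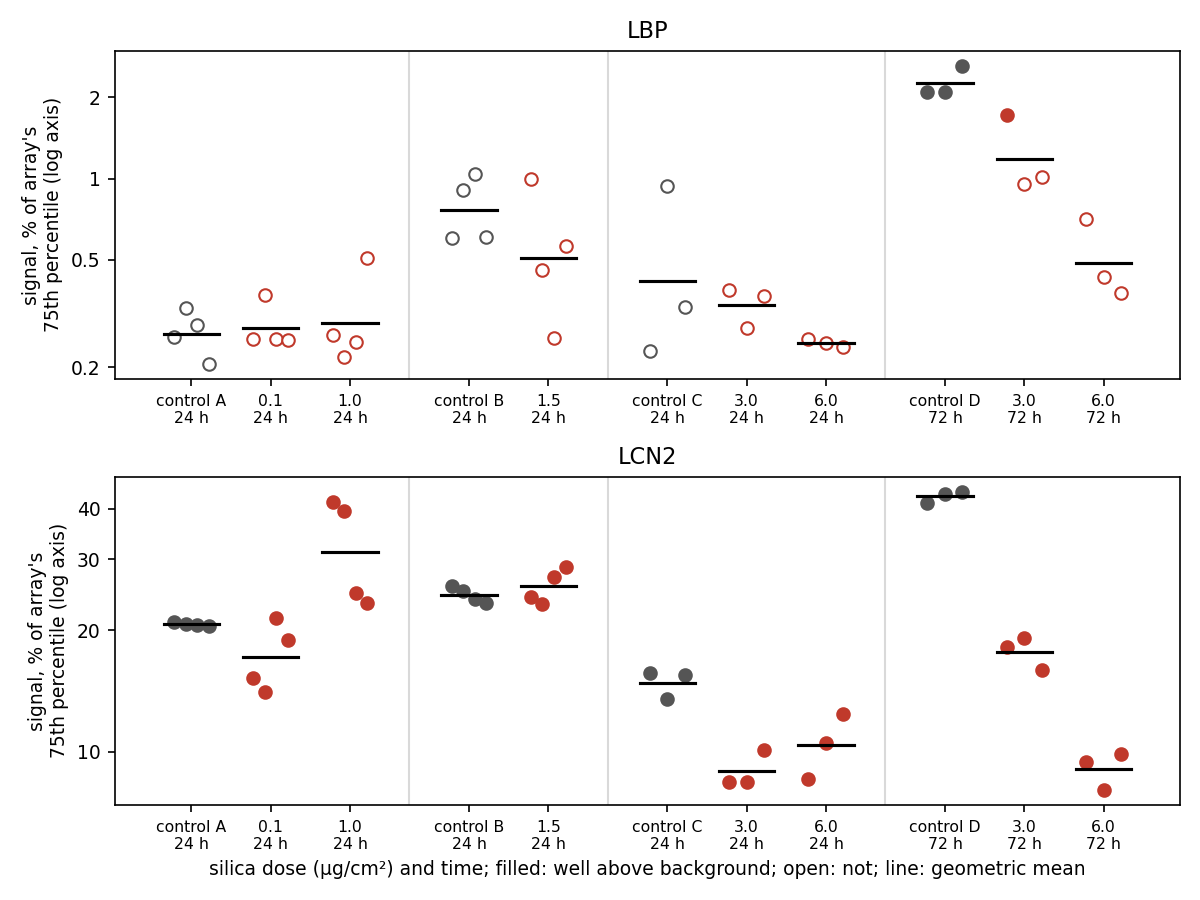
Relative signal of LBP and LCN2 on each array, in percent of the 75th percentile of that array on a log axis, by dose and time, with filled points well above background and lines at geometric means. The 3 arrays of control D stand highest in the LBP panel, at 2.10 to 2.62%, and at 41.2 to 44.1% in the LCN2 panel, above both exposed groups at 72 h.

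LCN2, the siderophore-binding lipocalin, was well above background on all 38 arrays and fell in silica-exposed cells at 72 h in a dose-dependent manner. Control D read 41.2, 43.6 and 44.1%. LCN2 read 18.2, 19.1 and 15.9% at 3.0 µg/cm², and at 6.0 µg/cm² 9.43, 8.03 and 9.89%. The 3 groups did not overlap. The log2 difference from control D was -1.28 ± 0.080 at 3.0 (2.43-fold lower, adjusted p = 0.000756, limma) and -2.24 ± 0.092 at 6.0 µg/cm² (4.73-fold lower, adjusted p = 2.64e-05), and between the doses it was -0.96 ± 0.11 (adjusted p = 0.00474). With normexp the difference at 6.0 µg/cm² was -1.64 (3.11-fold lower). The exposed 72 h arrays were scanned on another day and on other slides than control D, so scan day and exposure cannot be told apart there. The 6.0 against 3.0 comparison lies within 1 scan day, but these groups shared only 1 slide, so slide and dose cannot be fully told apart. On that slide the LCN2 difference was -0.82.

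At 24 h LCN2 fell at 3.0 µg/cm². Control C read 15.6, 13.5 and 15.5%, the 3.0 µg/cm² arrays 8.39, 8.40 and 10.1%, and the 6.0 µg/cm² arrays 8.54, 10.5 and 12.4%. Both exposed groups lay below all controls and overlapped each other. The log2 difference was -0.73 ± 0.098 at 3.0 (1.66-fold lower, adjusted p = 0.00654) and -0.52 ± 0.14 at 6.0 µg/cm² (1.43-fold lower, adjusted p = 0.0301). The second value missed the fold threshold, and passed without control C replicate 2 (-0.59, adjusted p = 0.0469) or without replicate 3 of the 6.0 group (-0.65, adjusted p = 0.018). With 1 array left out it ran from -0.65 to -0.38. Over all alternatives the 6.0 µg/cm² difference ran from -0.65 to -0.19, with an adjusted p of up to 0.597 (limma or the methods' t-test). Between 6.0 and 3.0 µg/cm² at 24 h the log2 difference was 0.21 (95% interval -0.13 to 0.56, adjusted p = 0.394), so an order between the doses was not resolved. With the intensities without background subtraction, LCN2 at 3.0 µg/cm² differed by -0.49 (adjusted p = 0.00817), and with normexp by -0.41 (adjusted p = 0.0053), both under the fold threshold.

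LCN2 in unexposed cells was 2.90-fold higher at 72 h than at 24 h (log2 difference 1.53 ± 0.075, adjusted p = 5.54e-05), with no overlap and a difference of 1.40 to 1.69 within each of the 3 slides that carried both. This comparison and those of the 72 h doses share control D. Between 24 and 72 h the LCN2 level went from 8.93 to 17.7% at 3.0 µg/cm² and from 10.4 to 9.08% at 6.0 µg/cm². The difference between the 72 h and the 24 h response was -1.72 ± 0.18 at 6.0 µg/cm² (adjusted p = 7.85e-05, limma) and -0.55 ± 0.13 at 3.0 µg/cm² (adjusted p = 0.0193, under the fold threshold). Exposed arrays and controls shared slides and scan day at 24 h but not at 72 h, so these and time cannot be told apart here.

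At 1.0 µg/cm² LCN2 stood above its controls on all 4 arrays, at 41.5, 39.5, 24.7 and 23.4% against 20.5 to 21.0% in control A. The log2 difference of 0.59 ± 0.19 (1.51-fold) did not pass the test (adjusted p = 0.184, limma). At 0.1 µg/cm² LCN2 read 15.2, 14.1, 21.5 and 19.0% (log2 difference -0.27 ± 0.13, adjusted p = 0.578). In both groups arrays 1 and 2 lay close together and apart from arrays 3 and 4. With these pairs as a random block the correlation within pairs over all probes was 0.872 for the 0.1 and 0.807 for the 1.0 comparison. For the 1.5 comparison it was 0.63. The errors and p-values given for these doses treat the 4 arrays of a group as separate. No member's call at these doses changed with the block. At 1.5 µg/cm² LCN2 read 24.1, 23.3, 27.0 and 28.6% against 25.8, 25.1, 23.8 and 23.4% in control B, a log2 difference of 0.07 (95% interval -0.14 to 0.27, adjusted p = 0.756).

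Over all 11 groups LCN2 was highest in control D (43.0%), then at 1.0 µg/cm² (31.2%), 1.5 µg/cm² (25.7%), control B (24.5%), control A (20.7%), 3.0 µg/cm² for 72 h (17.7%), 0.1 µg/cm² (17.2%), control C (14.8%), 6.0 µg/cm² for 24 h (10.4%), 6.0 µg/cm² for 72 h (9.08%) and 3.0 µg/cm² for 24 h (8.93%). Neighbours in this order overlapped, except control B and control A, control A and 3.0 µg/cm² for 72 h, and control C and 6.0 µg/cm² for 24 h.

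LBP, which passes lipopolysaccharide on to CD14, was below the scanner's background mark on nearly every array. It was well above background on 3 of 3 arrays of control D (2.10, 2.10 and 2.62%) and on 1 of 3 arrays at 3.0 µg/cm² for 72 h (1.72, 0.953 and 1.02%), and on no other of the 38. At 6.0 µg/cm² for 72 h it read 0.708, 0.433 and 0.379%. All exposed arrays lay below all 72 h controls. LBP was at least 2.07-fold lower at 6.0 µg/cm² than in control D (group levels 0.488 and 2.26%). The fitted difference, with exposed values below background, had adjusted p = 0.000636 (limma), and LBP entered the fit only through control D. The log2 difference at 3.0 µg/cm² was -0.93 ± 0.24 (1.91-fold lower, adjusted p = 0.0374), where 1 exposed array measured the gene. That call was lost with no filter (adjusted p = 0.0959), with the methods' t-test (adjusted p = 0.101 after Benjamini-Hochberg), with the replicate number as a block (adjusted p = 0.0792) and with the slide as a random block (adjusted p = 0.0628). It was also lost without any 1 array of control D or without replicate 2 or 3 of the exposed group (adjusted p = 0.0855 to 0.104), but not without replicate 1, the array well above background (-1.20, adjusted p = 0.00512). With normexp both doses fell under the fold threshold (-0.40 and -0.58).

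In control C LBP read 0.230, 0.944 and 0.335%, with 0 of 3 arrays well above background. LBP was thus at least 2.48-fold higher in unexposed cells at 72 h than at 24 h (group levels 2.26 and 0.418%). The fitted difference, called with adjusted p = 0.00573 (limma), used control C values below background. LBP entered that fit only through control D. That call was lost with normexp (0.49, under the fold threshold) and with the intensity without background subtraction (0.46, adjusted p = 0.07). LBP was above background in no 24 h group, so the size of a difference between its 72 h and 24 h responses is not given. At 24 h LBP was not tested at any dose, its group levels in exposed cells being 0.247 to 0.507% and those of controls A and B 0.267 and 0.767%.

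**Figure D3:**
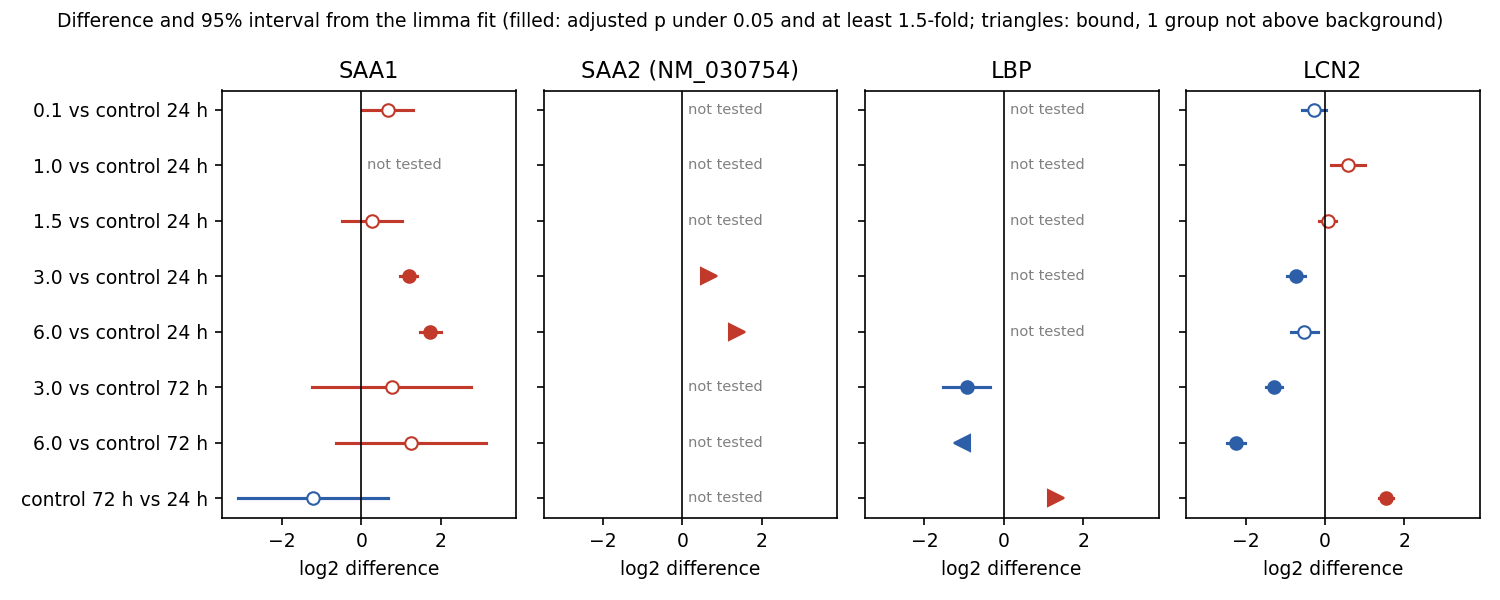
Log2 difference of each member probe that was tested, with its 95% interval, for each dose against its own controls and for control D against control C; filled points passed an adjusted p of 0.05 and a 1.5-fold change. Triangles are bounds, where 1 group was above background on no array. SAA1 stands right of 0 at both higher doses after 24 h (1.19 and 1.74) and LCN2 left of 0 at 72 h (-1.28 and -2.24).

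The calls by limma were counted over the 6 member probes and set beside the share of all probes tested that were called. At 0.1, 1.0 and 1.5 µg/cm² 0 members were called of the 2, 1 and 2 tested, against 0, 0.00949 and 2.47% of all probes. At an unadjusted p under 0.05 the counts were 1 (SAA1), 1 (LCN2) and 0, against 9.44, 17.6 and 16.7%. The methods' t-test called 0 members at these doses too. At 3.0 µg/cm² for 24 h 3 of 3 tested members were called, 2 higher and 1 lower, against 2.88% of all probes (1.49% higher and 1.38% lower). At 6.0 µg/cm² for 24 h 2 of 3 were called, both higher, against 9.32% (3.95% higher and 5.37% lower). At 72 h 2 of 3 tested members were called at each dose, all lower, against 5.91% at 3.0 (2.1% higher and 3.8% lower) and 17.1% at 6.0 µg/cm² (6.63% higher and 10.5% lower). Between unexposed cells at 72 and 24 h 2 of 3 were called, both higher, against 20.1% (13.4% higher and 6.72% lower). Between 6.0 and 3.0 µg/cm² 1 of 3 was called at 24 h (against 1.64%) and 1 of 2 at 72 h (against 4.85%). The change of response between 24 and 72 h was called for 0 of 4 members at 3.0 µg/cm² (against 5.33%; 2 of 4 and 35.4% at an unadjusted p under 0.05) and for 2 of 4 at 6.0 µg/cm² (against 17.2%). Here SAA2 at 24 h, LBP at 72 h and SAA1 at 72 h passed the filter on dim probes only through the group in which they were high, as did LBP between the controls, and both response calls at 6.0 µg/cm² are LCN2 and SAA2, the latter unmeasured in 3 of its 4 groups. Nothing is read from these counts of few probes.

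Other acute phase genes, from a list of 18 whose products rise in the plasma in this response, did not all follow SAA1. At 6.0 µg/cm² for 24 h, 1 of 14 tested was higher and 4 lower (median log2 difference -0.21, against -0.03 over all probes tested). PTX3, a soluble pattern-recognition protein, rose by 2.19 ± 0.076 on the log2 scale, while the fibrinogen chain genes FGB, FGG and FGA differed by -1.75, -1.65 and -1.08. At 72 h 12 of 16 were lower and 1 higher at 6.0 µg/cm² (median -1.53, or -1.52 with genes below background at their bound, against 0.04), with PTX3 at least 5.65-fold higher (above background on 0 of 3 control arrays), FGG at -3.21, FGB at -2.94 and CP, the copper carrier ceruloplasmin, at -2.81. With 3.0 µg/cm² 1 was higher and 5 lower of 14 at 24 h, and 1 higher and 9 lower of 16 at 72 h. In unexposed cells 12 of 16 were higher at 72 h than at 24 h and 1 was lower (median 1.48, against 0.06), led by LRG1 at 2.90 (above background on 2 of 3 arrays of control C) and FGG at 2.55. Over all probes 3.95% were higher and 5.37% lower at 6.0 µg/cm² for 24 h, and 6.63 and 10.5% for 72 h. At 3.0 µg/cm² these shares were 1.49 and 1.38% for 24 h, and 2.1 and 3.8% for 72 h. Between the controls 13.4% were higher and 6.72% lower.

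Of the 7 negative acute phase proteins, whose plasma levels fall in this response, 3 of 6 tested were lower at 6.0 µg/cm² for 24 h (against 5.37% of all probes) and 6 of 7 at 72 h (against 10.5%), and 0 were higher. The cortisol carrier gene SERPINA6 differed by -2.15 ± 0.051 at 24 h and -2.28 ± 0.089 at 72 h. Transferrin (TF), above background on 1 of 3 exposed arrays, had group levels of 0.826% at 6.0 µg/cm² for 72 h and 20.4% in control D, and albumin (ALB) was at least 3.20-fold lower. At 3.0 µg/cm² 2 of 6 were lower and 1 higher at 24 h (against 1.38 and 1.49%), and 6 of 7 lower at 72 h (against 3.8%). In unexposed cells 6 of 7 were higher at 72 h than at 24 h (against 13.4%). At the lower doses 1 gene of both acute phase lists was called, ORM1 at 1.5 µg/cm² (0.79 ± 0.11), where 2.47% of all probes were called.

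**Figure D4:**
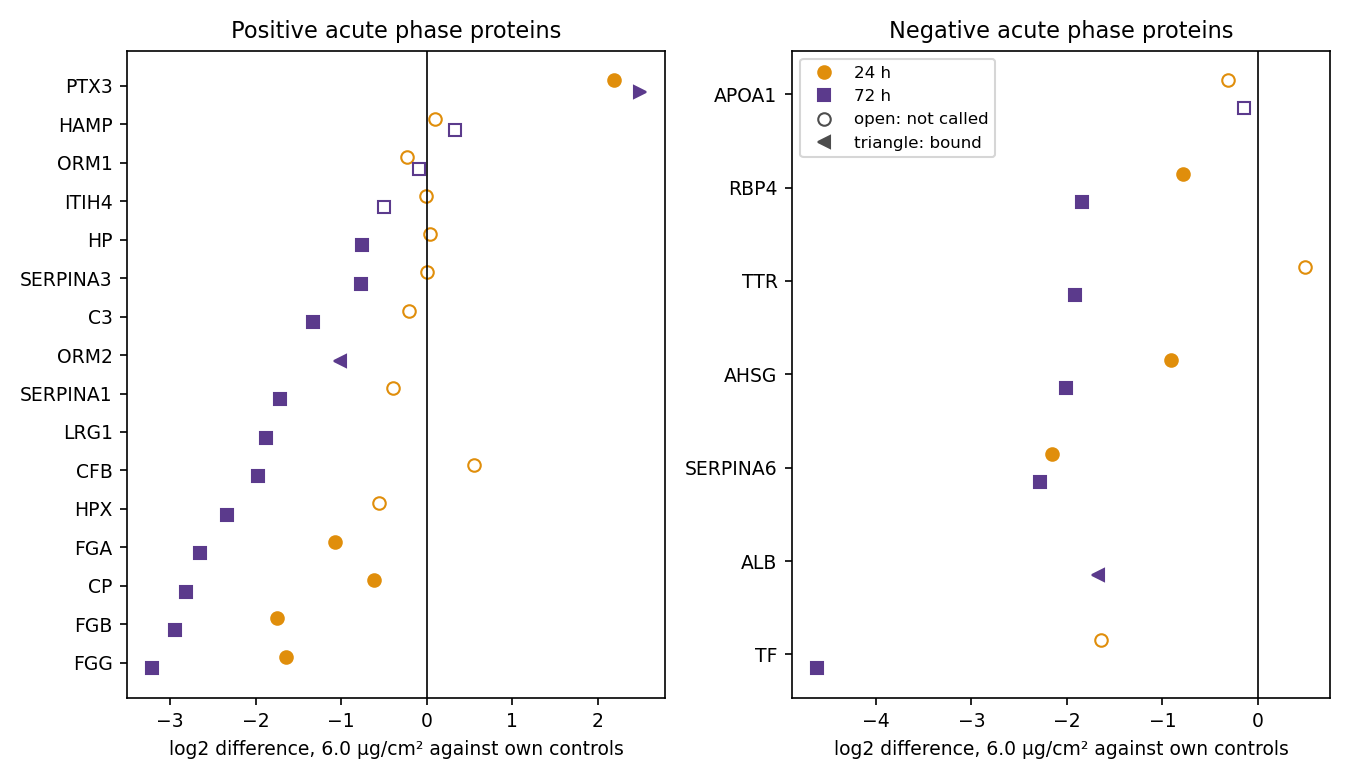
Log2 difference at 6.0 µg/cm² from the controls of the same time, for each tested gene of the positive and the negative acute phase list; circles are 24 h, squares 72 h, and filled marks passed both thresholds. PTX3 is the gene far to the right in the positive list (2.19 at 24 h, and a bound of 5.65-fold at 72 h), triangles are bounds where 1 group was above background on no array, and FGG (-1.65 and -3.21) stands at its lower end.

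The cytokine and transcription factor genes that act upstream of the acute phase response were read from a list of 21, with 17 tested at 24 h and 18 at 72 h. At 6.0 µg/cm² 6 were higher and 3 lower at 24 h (against 3.95 and 5.37% of all probes), and 2 higher and 5 lower at 72 h (against 6.63 and 10.5%). IL6, the main inducer of serum amyloid A, rose by 3.73 ± 0.12 at 24 h and by 2.27 ± 0.11 at 72 h, where 2 of 3 control arrays were above background. RELB, an NF-kB subunit, rose by 1.34 and 1.74, and TNF was at least 1.60-fold higher at 24 h. The adjusted p of TNF, 0.0135 (limma), belongs to its fitted difference from control values below background. The IL6 difference at 3.0 µg/cm² was 2.08 at 24 h and 1.62 at 72 h. HNF4A, above background on 1 of 3 arrays at 6.0 µg/cm² for 72 h, differed there by -1.18 ± 0.33, and IL1B was at least 1.48-fold lower. In unexposed cells IL6 and RELB were lower at 72 h than at 24 h (-1.21 and -1.51), and IL1B was at least 1.78-fold higher.

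Among 16 receptors and partners of the member proteins, 9 could be tested at 24 h and 8 at 72 h. At 6.0 µg/cm² for 24 h LY96, the TLR4 partner, rose by 1.68 ± 0.22 and TLR4 by 0.95 ± 0.15 (above background on 1 and 2 of 3 control arrays), while CD14, the receptor to which LBP delivers lipopolysaccharide, differed by -0.70 ± 0.061. At 72 h CD14 differed by -1.39 ± 0.069, BDH2, an enzyme proposed to make the mammalian siderophore, by -1.26, and the LCN2 receptor SLC22A17 by -0.91, while LRP2 (megalin), which takes up LCN2, rose by 0.76. In unexposed cells CD14 was higher at 72 h than at 24 h by 3.39 ± 0.054 on the log2 scale. The serum amyloid A receptor FPR2 was well above background on 0 of 38 arrays, as were CD36 and BPI, a relative of LBP. Of those tested 1 was higher and 0 lower at 3.0 µg/cm² for 24 h (against 1.49 and 1.38% of all probes). At 72 h 1 was higher and 1 lower (against 2.1 and 3.8%).

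Among 12 further lipocalin genes 0 were higher at 3.0 or 6.0 µg/cm² at either time (against 1.49 to 6.63% of all probes). At 6.0 µg/cm² 2 of 7 tested were lower at 24 h (AMBP at -1.60 and RBP4 at -0.78) and 6 of 9 at 72 h (against 5.37 and 10.5% of all probes), among them APOD (at least 2.24-fold lower), PTGDS at -1.92 and RBP4 at -1.84. For the 3.0 µg/cm² groups 1 of 7 was lower at 24 h and 4 of 9 at 72 h (against 1.38 and 3.8% of all probes). In unexposed cells 4 of 9 were higher at 72 h than at 24 h (against 13.4%). RBP4, the retinol carrier, and ORM1 and ORM2 stand in an acute phase list as well.

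Markers of other cell types were read beside these results. The summed relative signal of the 8 leukocyte markers was 38.9 to 39.8% in control C, 79.1 to 83.1% at 3.0 and 142 to 155% at 6.0 µg/cm² for 24 h, most of it CD68, a lysosomal protein that rose by 2.29 ± 0.064 on the log2 scale at 6.0 µg/cm². At 72 h it was 55.3 to 59.9% in control D and 74.1 to 81.2% at 6.0 µg/cm². PTPRC (CD45) differed by -0.63 at 24 h. ELANE, neutrophil elastase, at 0.294 to 7.04% over all arrays, was higher in control D than in control C (2.55 ± 0.069). It was lower at 6.0 µg/cm² for 72 h (-2.14 ± 0.13), and both ELANE differences share control D. The other leukocyte markers called at 6.0 µg/cm² for 72 h went the other way, ITGAM at 0.65 and CD68 at 0.61. The part of these markers in the members' results was not tested. The 7 fibroblast and endothelial markers summed to 24.4 to 32.2% in control C and 10.7 to 12.4% at 6.0 µg/cm² for 24 h. Only 2 of the 7 were tested there and 1 was called, COL1A1 at -1.85 ± 0.14 (against 5.37% of all probes lower). COL1A2 and PDGFRB were well above background on 0 of 38 arrays, COL3A1 on 2 and PECAM1 on 3. The 6 epithelial markers summed to 53077 to 56930% in control C and 54117 to 56746% at 6.0 µg/cm² for 24 h, a sum carried by keratins. CDH1 and EPCAM were lower with 6.0 µg/cm², at -1.22 and -0.80 for 24 h and at -1.42 and -1.17 for 72 h, and KRT19 was higher for 24 h (0.78). Of the 8 alveolar type II markers 6 were tested, and 1 was lower at 6.0 µg/cm² at each time (SFTPC at 24 h, SFTPD at 72 h). Over all probes 5.37 and 10.5% were lower there.

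The genes most like each member were sought among 14777, by Pearson correlation over the 24 exposed arrays, each value taken as the difference from the mean of its own controls. The arrays share 4 control sets and 2 time points, so the values are descriptions. SAA1 was most alike to RMND5A (r = 0.90), RHOF (0.87) and FBXL16 (0.86) and most opposite to MIR924HG (-0.87), HHEX (-0.86) and NEBL (-0.86). Its control means rest partly on unmeasured values, since it was well above background on 2 of 4 arrays of control A and 1 of 3 of control D. LCN2 was most alike to POU2AF3, XBP1 and the complement gene C3 (0.96 each) and most opposite to MPP1 (-0.97), LOC93429 (-0.95) and CTPS1 (-0.95). SAA2 and LBP were below background on most arrays, and no gene is named for them. Between SAA1 and LCN2 themselves r was -0.40.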

How the data were processed

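Gene expression in A549 cells was measured on one-colour Agilent arrays. The deposited scanner files, made by the authors with Agilent Feature Extraction 10.10.1.1 (control A set) or 11.0.1.1 (others), hold spot intensity values, among them the background-subtracted processed signal. The deposited value table holds the median spot intensity of the same arrays, with no centring. The design annotation is on hg19 and its coordinates were not used; the promoter is that of RefSeq on GRCh38.p14.

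Control spots and outlier-marked spots (0.612%) were left out. The main value was the log2 processed signal scaled to the 75th percentile of the array, as a mean over the spots of a probe. Of 34127 probes, 25715 carried a gene symbol. Tests took the probes that were well above background on all arrays of 1 or more of the groups compared (R 4.3.3, limma 3.58.1, lmFit and eBayes, Benjamini-Hochberg over all of them), and calls needed an adjusted p under 0.05 and a fold of at least 1.5. Fits used the compared groups alone, with no covariate. A bound on a fold was taken against the lowest signal well above background on each array of the dim group. Bounds were not tested, and a p-value given with a bound belongs to the fitted difference. The number of arrays limits the precision. A list gene was read from its brightest probe, and the genes named were taken from the 4 called ones with the largest change at 6.0 µg/cm². The genes most like a member were the 3 with the highest and the 3 with the lowest correlation. Other genes were named after their values were seen (ORM1, CDH1 and the markers). The fits were tested on simulated data.

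Arrays with the same number deviated together in the 6.0 against 3.0 µg/cm² comparisons (r = 0.29 to 0.33 at 24 h and 0.18 to 0.66 at 72 h), where the numbers were taken to pair the arrays and the block changed neither count. The alternatives were quantile normalization, normexp on the median intensity (offset 50), the deposited table, other filters, no fold threshold, the methods' t-test, the replicate number or slide as a block, each array left out and, chosen after seeing the data, arrays 1 and 2, and 3 and 4, as a random block. The members and lists were chosen with earlier results of these data known. The submitters' descriptions of the 72 h exposed samples name 24 h, and their source labels, followed here, 72 h. Values of 2 genes of the lists are not reported here.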

Additional observations from a re-analysis of the deposited data

Results flagged for a closer look

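For LCN2 at 6.0 µg/cm² the 72 h minus the 24 h response was -1.7243 on the log2 scale. The level was 9.08% against 43.0% in its controls at 72 h, and 10.4% against 14.8% at 24 h. Only at 72 h did exposed arrays and controls differ in slide and scan day, so these and time cannot be told apart. For SAA2 (NM_030754) the fitted value was -2.0678, but the probe was well above background in 1 of the 4 groups, the exposed cells at 24 h, so its size is not a measurement, and with normexp it was -0.79 (adjusted p = 0.0926).

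A single array stood apart from the other 3 of its group in 2 of 30 instances, the 6 probes in each of the 5 groups of 4 arrays, where chance gives about 1 in 20; groups of 3 were not examined. The SAA2 probe NM_001127380 read 0.341% on the fourth array at 1.0 µg/cm² against 0.165 to 0.178% on the others (gap over range 0.9), and LBP read 0.371% on the second array at 0.1 µg/cm² against 0.253 to 0.255% (0.972). Neither probe was well above background there.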

How the results depend on the processing

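Under the alternatives other than leaving out 1 array, the results for single genes kept their direction and their side of the thresholds in 238 instances. They lost the call in 19, gained it in 10 and turned in 5. With 1 array left out, 2 to 3 member probes were called for 6.0 µg/cm² at 24 h, 6.0 µg/cm² at 72 h, controls at 72 against 24 h and the response at 6.0 µg/cm², 1 to 2 for 3.0 µg/cm² at 72 h and for 6.0 against 3.0 µg/cm² at both times, 0 to 1 for the response at 3.0 µg/cm², 3 for 3.0 µg/cm² at 24 h, and 0 at 0.1, 1.0 and 1.5 µg/cm². With normexp the counts were 1 for 3.0 and 6.0 µg/cm² at each time, for the controls and for the response at 6.0 µg/cm², and 0 for 6.0 against 3.0 µg/cm² at 24 h. With the deposited table they were 1 for 3.0 and 6.0 µg/cm² at 24 h and for the controls, 0 for 6.0 against 3.0 µg/cm² at 24 h, and 3 and 4 for the responses at 3.0 and 6.0 µg/cm². Testing only probes above background on every array removed LBP or SAA2 by construction and left 1 for 6.0 µg/cm² at 24 h, both doses at 72 h, the controls and the response at 6.0 µg/cm². Without the fold threshold the count was 2 for 6.0 against 3.0 µg/cm² at 24 h and 1 for the response at 3.0 µg/cm², where quantile normalization also gave 1. At 3.0 µg/cm² for 72 h it was 1 with no filter, with the methods' t-test, with the replicate number as a block and with the slide as a random block, LBP being lost each time. The replicate block changed no other call.

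The direction turned for SAA1 at 1.5 µg/cm² (-0.0381 with normexp, -0.0353 with the deposited table, and -0.0501 to 0.4685 leaving out 1 array), for LCN2 there (-6e-04 and -0.0044), for SAA1 at 3.0 µg/cm² for 72 h (-0.1987 with the deposited table) and for the SAA1 responses leaving out 1 array (-0.9533 to 0.5704 at 3.0 and -1.0241 to 0.4996 at 6.0 µg/cm², the upper ends without control D replicate 3). The cause of these changes was not tested. Signal near background limits SAA2 and LBP.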
